A study of Mus musculus with 2 samples.

Results

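A set of 8 signalling genes that activated macrophages are known to switch on was followed in macrophages of the mouse small intestine: the chemokine genes Ccl3, Ccl4, Cxcl1, Cxcl2 and Cxcl16 and the cytokine genes Tnf, Il6 and Il12b. These 8 genes were taken by name from the 27998 genes of the count tables, and all 8 were present. Of these, 6 reached a mean level of 10 CPM (unique molecular identifiers, UMIs, scaled to a total of 1000000 a library) over the libraries, while Il6 and Il12b did not. Cxcl1 reached it only through its level in the CCR2-/- cells.

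Each library held cells pooled from 3 to 4 intestines, freed of mucus and epithelium, digested with Liberase TL and sorted as live CD45+ CD11b+ MHCII+ CD64+ cells. Cells bearing CD3, TCRb, B220, SiglecF, Ly6C or Ly6G had been gated out. There was 1 library from male wild-type C57BL/6J mice from Janvier and 1 library from CCR2-/- mice (JAX strain 004999) bred in-house. Wild-type cell barcodes end in 1 or 2, and these 2 sets of cells are called lanes below. CCR2 is the chemokine receptor that lets monocytes exit the marrow into blood, and its loss was not restricted to a cell type here. Genotype, source of the animals and library were the same split, so they cannot be told apart, and the labels give no ages and no sex for the CCR2-/- mice. With 1 library per genotype no test was possible. The 95% intervals below cover counting error only. The 2 wild-type lanes serve as a yardstick within 1 library and are not replicates, and whether they hold cells of the same animals was not tested.

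CCL3 and CCL4 (MIP-1α and MIP-1β) attract leukocytes, CCL3 through CCR1 among others, and their genes are neighbours in 1 chemokine cluster. CXCL1 and CXCL2 act on CXCR2 and draw in neutrophils, and CXCL16 is a membrane-bound ligand of CXCR6 that ADAM10 and ADAM17 can shed. TNF is likewise made as a membrane protein that ADAM17 releases, IL-6 signals through IL6RA and gp130, and Il12b encodes the p40 chain shared by IL-12 and IL-23. In macrophages most of these genes are silent or low at rest, are switched on within minutes to hours through NF-kB and AP-1, and give short-lived AU-rich mRNAs. Fos, Egr1 and Dusp1 belong to the immediate-early genes, which also rise when tissue is digested and cells are sorted.

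Gene positions are for GRCm38, from the GENCODE M21 annotation. Ccl3 (ENSMUSG00000000982) lies at chr11:83647844-83649355 on the minus strand and Ccl4 (ENSMUSG00000018930) at chr11:83662584-83664683 on the plus strand. Cxcl1 (ENSMUSG00000029380) at chr5:90891241-90893115 and Cxcl2 (ENSMUSG00000058427) at chr5:90903871-90905938 are neighbours on the plus strand of another cluster. Cxcl16 (ENSMUSG00000018920) is at chr11:70453983-70459984 on the minus strand and Tnf (ENSMUSG00000024401) at chr17:35199381-35202007 on the minus strand. Il6 (ENSMUSG00000025746) is at chr5:30013114-30019981 and Il12b (ENSMUSG00000004296) at chr11:44400063-44414033, both on the plus strand.

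RefSeq promoter windows of build GRCm38.p6, from 250 bases before to 50 bases after the start site, were found for 6 of the 8 genes, all but Ccl4 and Cxcl16. They were searched on both strands for the 10-base NF-kB consensus, for AP-1 (TGANTCA) and for the cyclic AMP response element (TGACGTCA). Cxcl1, Cxcl2 and Il6 held an NF-kB match, which 4.51% of 32851 promoter windows of this length hold. The 250 bases before the start site are shown for these 3 genes, because Cxcl1 and Cxcl2 carry the same letters there and are described together below. They are written 5′ to 3′ on the gene's own strand, and capitals mark the NF-kB match.
Cxcl1 (chr5:90890995-90891244, plus strand): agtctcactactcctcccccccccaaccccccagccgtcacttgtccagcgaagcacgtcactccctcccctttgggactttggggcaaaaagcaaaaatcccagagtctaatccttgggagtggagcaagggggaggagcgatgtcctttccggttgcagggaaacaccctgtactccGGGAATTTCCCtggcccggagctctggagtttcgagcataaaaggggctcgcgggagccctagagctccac
Cxcl2 (chr5:90903649-90903898, plus strand): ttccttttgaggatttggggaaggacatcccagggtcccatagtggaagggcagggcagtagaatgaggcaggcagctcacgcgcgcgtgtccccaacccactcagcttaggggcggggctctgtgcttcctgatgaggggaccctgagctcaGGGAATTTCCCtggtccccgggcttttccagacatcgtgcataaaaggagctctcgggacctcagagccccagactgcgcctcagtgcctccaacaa
Il6 (chr5:30012864-30013113, plus strand): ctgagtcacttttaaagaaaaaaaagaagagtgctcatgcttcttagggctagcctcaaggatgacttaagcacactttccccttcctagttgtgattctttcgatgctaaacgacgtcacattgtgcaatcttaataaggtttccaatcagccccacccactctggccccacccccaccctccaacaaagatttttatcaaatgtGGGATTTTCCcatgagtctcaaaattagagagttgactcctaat
The capitals in Cxcl1 and Cxcl2 are the same run of letters, in which a match on each strand overlaps, from -71 to -61 in Cxcl1 and from -97 to -87 in Cxcl2. Il6 had its match from -44 to -35 and an AP-1 match from -249 to -243, which 7.81% of the windows hold. No NF-kB or AP-1 match was found in the windows of Ccl3, Tnf and Il12b, and none of the 6 windows held the cyclic AMP element (1.79% of all windows). A match is a description of letters, and its use in these cells was not measured.

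After the cell filter (at least 200 genes and at most 10% mitochondrial UMIs), 2612 of 2774 CCR2-/- cells and 3016 of 3054 wild-type cells were kept, 2109 in lane 1 and 907 in lane 2. They held 7265386 and 20678108 UMIs, 1 for each transcript end captured, with medians of 2439 and 6129 UMIs a cell. Lanes shared 5 barcodes and the libraries 6. Ccr2 itself had 6.88 CPM in the CCR2-/- library and 331 CPM in the wild type, and which part of it was deleted is not given in the labels. The macrophage genes C1qa, Csf1r and Fcgr1 were abundant in both libraries, and the mast cell list was at 0 in both. Neutrophil markers summed to 45.3 and 34.7 CPM, of which Csf3r made 41.6 and 33.6, with S100a8, S100a9 and Ly6g at 0 in both. B and plasma cell markers summed to 1828 and 1697 CPM. Fibroblast markers summed to 245 CPM in CCR2-/- and 27.9 CPM in wild-type cells, endothelial markers to 190 and 52.2 CPM and haemoglobin genes to 6839 and 668 CPM. Haemoglobin differed between the lanes as well, at 947 and 3.27 CPM. In the median cell Fos, Egr1 and Dusp1 together took 1.08% of the UMIs of a CCR2-/- cell and 0.213% of a wild-type cell, and these 3 genes define the strata used below.

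Of the 6 genes above the minimum, 5 were at least 2-fold higher in the CCR2-/- library than in the wild type, a size that 9.04% of the 7401 genes above the minimum reached. Cxcl1 and Ccl4 had the highest ratios, Cxcl2, Tnf and Ccl3 followed, and Cxcl16 stayed under 2-fold. Cxcl1, at 9.38 CPM in wild-type cells, passed the minimum only through its CCR2-/- level. Its place in this count and in the median that follows is therefore not independent of its ratio. The median log2 ratio of the 6 was 2.09, and that of all genes above the minimum was 0.18. With Il6 and Il12b included, the median of the 8 was 1.55. Between the wild-type lanes none of the 6 passed 2-fold in either direction, as 0.878% of all genes did, and their log2 ratios of lane 2 to lane 1 ran from -0.33 to 0.30. Log2 ratios are on the scale of log2(CPM + 1).

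**Figure D1:**
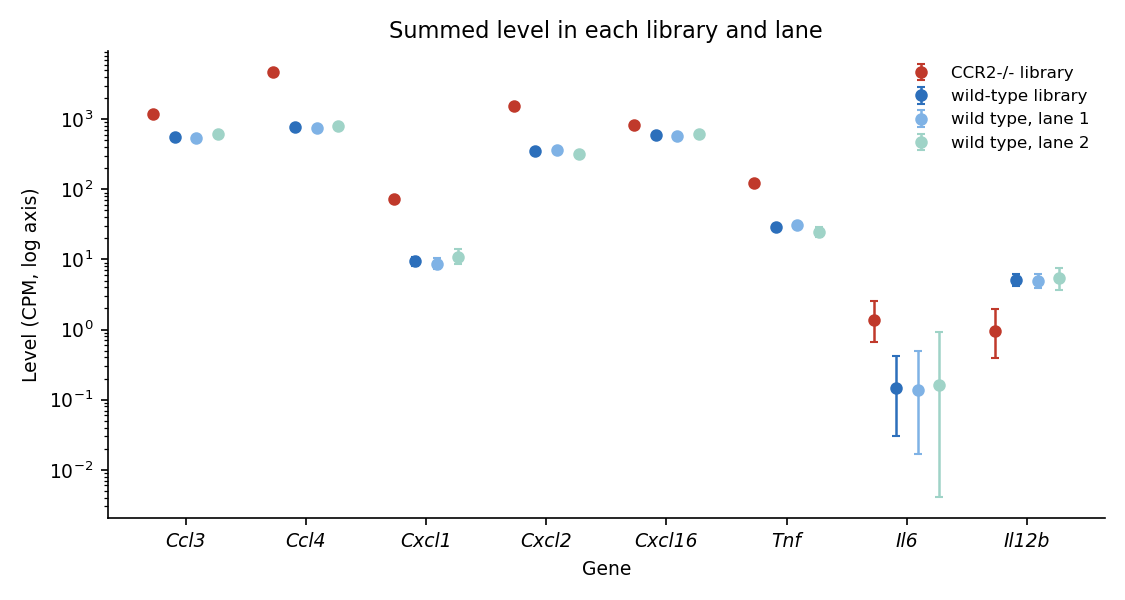
Summed level of each gene in CPM (log axis) in the CCR2-/- library, the wild-type library and its 2 lanes, with exact 95% Poisson intervals for counting error. Ccl4 stood at 4678 CPM in the CCR2-/- library and at 754 and 807 CPM in the wild-type lanes, and Il12b was the gene with the lower CCR2-/- level.

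Of the neighbours Ccl3 and Ccl4, Ccl4 was at 4678 CPM (4628 to 4728) in CCR2-/- cells and 769.8 CPM (758 to 782) in wild-type cells, 754 in lane 1 and 807 in lane 2. That was a 6.08-fold difference (5.96 to 6.19). Its neighbour Ccl3 was at 1192.5 CPM (1168 to 1218) in CCR2-/- cells and 567 CPM (556 to 577) in wild-type cells, 548 in lane 1 and 611 in lane 2. Its ratio was smaller, 2.10-fold (2.05 to 2.16), and against lane 2 alone its log2 ratio was 0.96, just under 2-fold. The CCR2-/- library was above both lanes for both genes, and the lanes differed from each other far less than the libraries did.

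The neutrophil attractants showed the same order of libraries. Cxcl2 was at 1561 CPM (1533 to 1590) in CCR2-/- cells and at 350.2 CPM (342 to 358) in wild-type cells, with 364 and 316 in the lanes, a 4.46-fold difference (4.33 to 4.59). Cxcl1 was at 72.0 CPM (65.9 to 78.4), from 523 UMIs, in CCR2-/- cells and at 9.38 CPM (8.11 to 10.8), from 194 UMIs, in wild-type cells, with 8.72 and 11.0 in the lanes. The fold was 7.67 (6.49 to 9.09). On the log2 scale it was 2.81. It was 3.68 without the 1% of cells of each library with the most Cxcl1 UMIs, a step that removes a larger part of the wild-type UMIs. With a pseudocount of 10 CPM it was 2.08, where Ccl4 had 2.59. Among the 6 genes above the minimum Cxcl1 had the fewest UMIs and the largest part of them in few cells. The 1% of cells with the most UMIs of it held 68.6% of its wild-type UMIs and 31.4% of its CCR2-/- UMIs, a measure that also rises when a gene has few UMIs. For Ccl4 the same 1% of cells held 12.1% and 7.17%.

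The 2 genes for membrane-bound ligands differed from each other. Tnf was at 123 CPM (115 to 132) in CCR2-/- cells and at 29.4 CPM (27.1 to 31.8) in wild-type cells, 31.4 in lane 1 and 24.7 in lane 2, a 4.19-fold difference (3.78 to 4.65). Cxcl16 was at 841 CPM (820 to 862) and at 596 CPM (585 to 606), with 586 and 619.8 in the lanes. Its fold of 1.41 (1.37 to 1.46) exceeded the difference between lanes but was the smallest of the 6.

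Il6 was close to absent. It had 10 UMIs in 7 of the CCR2-/- cells and 3 UMIs in 3 wild-type cells, and the ratio of 9.49 had a counting interval from 2.44 to 53.6. Il12b ran the other way, with 7 UMIs (0.963 CPM) in CCR2-/- cells and 106 UMIs (5.13 CPM) in wild-type cells, 5.01 and 5.40 CPM in the lanes, a 5.32-fold higher wild-type level (2.49 to 13.6). Among cells with 2000 to 4000 UMIs the direction turned, with a log2 ratio of 1.21. A level at least 2-fold lower in CCR2-/- was seen for 3.12% of the genes above the minimum, and Il12b itself is below that minimum. Those 106 UMIs lay in 19 wild-type cells, 14 of lane 1 and 5 of lane 2, and 1 cell held 25 of them. The 7 CCR2-/- UMIs lay in 6 cells. The 19 cells, looked at after their values were known, had a C1qa UMI in 100% of cases, as did 99.1% of the other wild-type cells. They had a Ccr2 UMI at full depth in 31.6% (44.0% of the others) and a median of 10021 UMIs. Ccl22 was at 161 CPM in them and 6.00 CPM in the others. The dendritic cell genes Ccr7 (77.9 and 1.03), Fscn1 (10.4 and 2.10), Flt3 (5.19 and 1.85) and Zbtb46 (5.19 and 0.586) were higher and Cd209a (20.8 and 40.6) lower. Each was found in 5.26% or 10.5% of the 19 cells. C1q-positive cells, a gate described below, held 70.8% of the wild-type Il12b UMIs. Il12a, the partner chain of p40 in IL-12, had 0 UMIs in both libraries, and Il23a, its partner in IL-23, had 0 UMIs in CCR2-/- and 7 in wild-type cells.

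Depth per cell differed between the libraries, so cells were thinned to 1000 UMIs before cells with a UMI were counted, which left out 196 CCR2-/- cells and 1 wild-type cell. At equal depth Ccl4 was found in 77.7% of CCR2-/- cells (76.0 to 79.3) and 36.9% of wild-type cells, and Ccl3 in 53.0% and 33.0%. Cxcl2 was found in 57.0% and 18.4%, Cxcl16 in 53.9% and 43.3%, Tnf in 10.1% and 3.32% and Cxcl1 in 5.38% and 0.697%. Each of these 6 genes was thus detected in a greater share of CCR2-/- cells. Without thinning, Cxcl16 was found in 77.6% of CCR2-/- and 88.5% of wild-type cells, an order opposite to that of its CPM and at unequal depth. Il12b was found in 4 of 2416 and 7 of 3015 thinned cells, and Il6 in 2 and 0, where 0 of 3015 allows, by a limit of 3 counts, a share of thinned cells with a UMI of up to 0.0995%.

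Free RNA in droplets also gives UMIs to cells that do not make a gene. In cells with lymphoid markers and under 3 C1q UMIs (31 CCR2-/- and 23 wild-type cells, median depths 2157 and 6964 UMIs), Ccl4 was found in 41.9% and 0% (0 of 23 allows up to 13.0% by a limit of 3 counts), although some lymphocytes transcribe Ccl4 themselves. In those cells Ccl3 was found in 12.9% and 4.35%, Cxcl2 in 16.1% and 8.70%, Cxcl16 in 6.45% and 8.70% and Tnf in 3.23% and 0%. The shares over all cells lay above them for each of the 6 genes within its own library, but with so few lymphoid cells the intervals for wild-type Cxcl2 (1.07 to 28.0%), Tnf and Cxcl1 (both up to 14.8%) and for CCR2-/- Tnf (up to 16.7%) and Cxcl1 (up to 11.2%) reached past the shares over all cells.

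The genes were also found together. At equal depth UMIs of 3 or more of the 8 genes were found in 54.6% of CCR2-/- cells (interval 52.6 to 56.6) and in 15.2% in the wild type (13.96 to 16.6), with 15.1% and 15.5% in the lanes. Multiplying the single shares as if genes fell into cells independently gave 53.3% and 11.5%. For 4 or more genes, 22.0% of CCR2-/- cells compared with 18.2% from the product, and 3.02% of wild-type cells compared with 1.37%. For 2 or more genes the observed shares, 80.8% and 41.0%, lay below the products of 85.4% and 41.8%. No gene at all was found in 23.5% of wild-type and 4.64% of CCR2-/- cells.

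**Figure D2:**
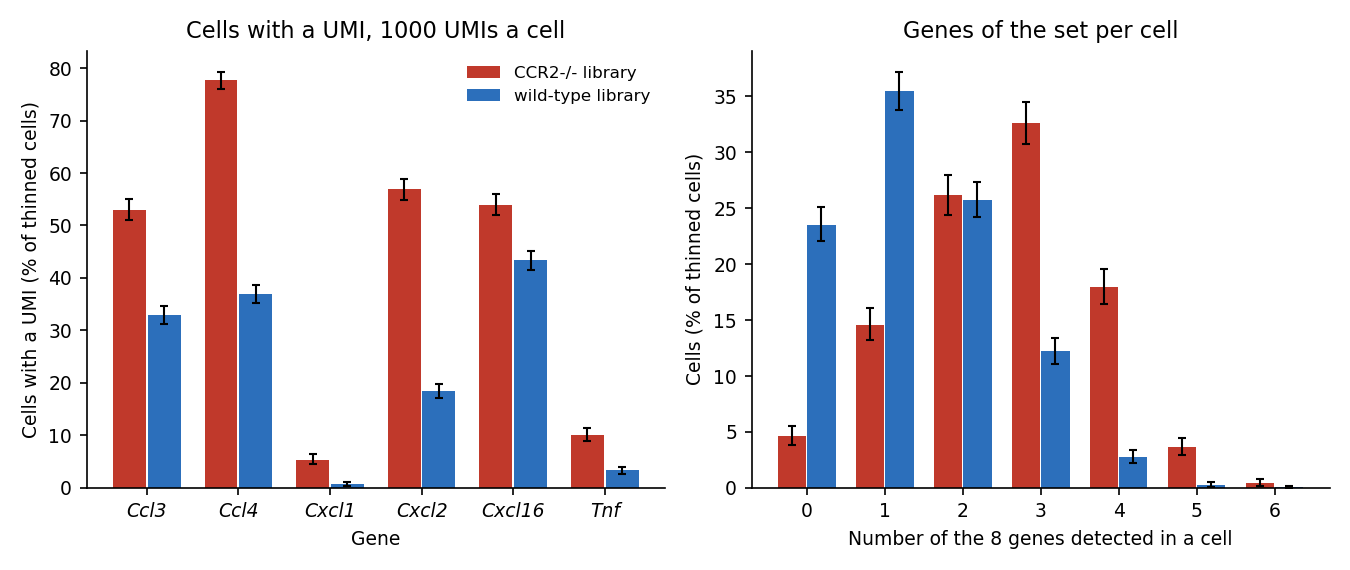
Left, percent of cells with a UMI of each gene after thinning to 1000 UMIs a cell; right, percent of cells by the number of the 8 genes found, both with exact 95% binomial intervals. The commonest wild-type count was 1 gene (35.5% of cells) and the commonest CCR2-/- count was 3 genes (32.6%).

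Of the 28 pairs, the neighbours Ccl3 and Ccl4 were found together in 45.8% of CCR2-/- cells, 1.11 times the product (1.05 to 1.18), and in 16.7% of wild-type cells, 1.37 times the product (1.25 to 1.49). Of the Ccl3-positive cells, 86.4% in CCR2-/- and 50.5% in wild type also had a Ccl4 UMI. The neighbours Cxcl1 and Cxcl2, which share the capitals shown above, were found together in 102 CCR2-/- cells, 1.38 times the product (1.12 to 1.67), and in 13 wild-type cells, 3.36 times (1.79 to 5.74). Ccl3 and Tnf were found together 1.35 times as often as the product in CCR2-/- cells (1.15 to 1.56) and 1.27 times in wild-type cells (0.918 to 1.72), the latter interval including 1. Pairs with Cxcl16 were near the product, at 1.02 with Ccl4, 1.04 with Ccl3 and 1.05 with Cxcl2 in CCR2-/- cells and at 1.08, 1.05 and 1.13 in wild-type cells. Cxcl2 with Ccl3 or Ccl4 was as near to it in CCR2-/- cells, at 1.06 for both, and stood at 1.24 and 1.28 in wild-type cells. The larger single share of a pair caps its ratio to the product, and Ccl4 was found in 77.7% of CCR2-/- and 36.9% of wild-type cells. The size of these ratios therefore cannot be compared between the libraries.

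Correlation of log2(1 + UMI) over the thinned cells was weak for nearly all genes and is given as a description. Among 6751 genes, Ccl3 and Ccl4 were each other's closest, with r of 0.30 over 3015 wild-type cells and 0.44 over 2416 CCR2-/- cells. Next to Ccl3, by the lower r of the libraries, came Cxcl2, Atf3, Klf6 and Nfkbiz. Next to Ccl4 came Junb, Fos, Dusp1 and Zfp36, and next to Cxcl2 came Fos, Dusp1, Ccl4, Zfp36 and Nfkbia, all with a lower r of at most 0.20. Cxcl16 had other neighbours, the lysosomal genes Psap and Lgmn, the nuclease gene Dnase1l3, the membrane protease gene Mmp14 and Rgs1, with lower r between 0.10 and 0.13, and its r with Fos was 0.01 and 0.06.

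Because the Fos, Egr1 and Dusp1 share differed so much between libraries, levels were next compared among cells of like share. At least 50 cells of both libraries were found in 4 strata: above 0.1 to 0.2% (57 CCR2-/- and 809 wild-type cells), 0.2 to 0.4% (155 and 992), 0.4 to 0.8% (553 and 504) and above 0.8% (1800 and 107). Most CCR2-/- cells, 68.9%, were in the highest stratum, which held 3.55% of wild-type cells. Inside it the median share was still 1.37% for CCR2-/- and 0.946% for wild-type cells.

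Within each library the chemokines and Tnf were higher in strata of higher share. From the lowest to the highest of the 4 strata, Cxcl2 differed 7.84-fold in wild-type and 4.90-fold in CCR2-/- cells, Ccl3 3.15-fold and 3.27-fold, Ccl4 2.91-fold and 4.48-fold and Tnf 2.61-fold and 3.93-fold. Cxcl1 differed 12.7-fold in wild-type cells, from 4.42 to 56.2 CPM. Cxcl16 hardly followed the share, with 1.08-fold in wild-type and 1.56-fold in CCR2-/- cells.

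Averaged over strata, the libraries lay closer together for each of the 6 genes than over all cells, to differing degrees and not in every stratum. Ccl3 was near equal: 424 CPM in CCR2-/- and 483 in wild-type cells in the lowest stratum, 656 and 577 in the next, 988 and 828 in the third, and 1387 and 1522 in the highest. Its folds of 0.877, 1.14, 1.19 and 0.911 fell on both sides of 1. In the third stratum its Poisson intervals did not overlap (943 to 1035 CPM in CCR2-/- and 796 to 862 CPM in wild-type cells), and in the others they did. Among cells with C1q UMIs and few markers of other cells, the gate described below, the Ccl3 folds in the upper 3 strata were 1.54, 1.21 and 0.934. Ccl4 was the higher in CCR2-/- cells in each stratum, by less than over all cells: 1271 CPM in CCR2-/- and 649 in wild-type cells in the lowest stratum, 2355 and 804 in the next, 3323 and 1289.9 in the third, and 5700.3 and 1889.9 in the highest. Its folds were 1.96, 2.93, 2.58 and 3.02, and its Poisson intervals did not overlap in any of the 4 strata. For both genes these intervals leave out variation between cells and between animals, so their overlap says nothing about genotype.

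**Figure D3:**
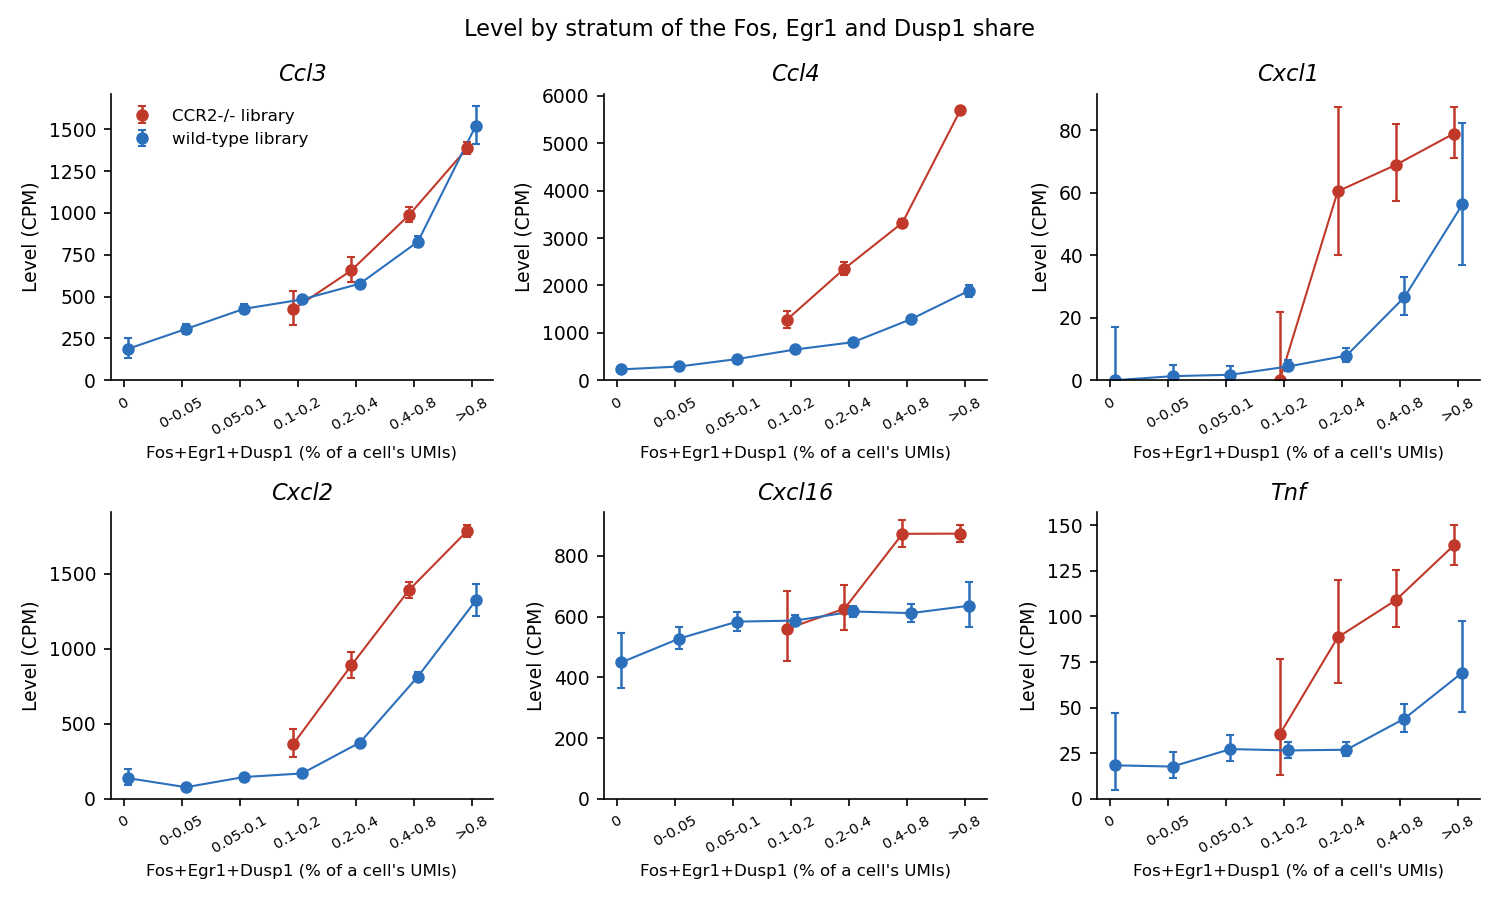
Level in CPM of 6 genes in cells grouped by the percent of their UMIs from Fos, Egr1 and Dusp1, for strata with at least 50 cells, with exact 95% Poisson intervals. The curves of the 2 libraries lie close for Ccl3 and apart for Ccl4, whose CCR2-/- level was 5700.3 CPM against 1889.9 CPM in the highest stratum.

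Tnf had folds of 1.33, 3.29, 2.48 and 2.01 from the lowest to the highest stratum, the first from only 6 CCR2-/- UMIs. Cxcl2 had folds of 2.16, 2.37, 1.71 and 1.35, so that its difference was smallest in the cells with the highest share. Cxcl1 had 0 UMIs in the lowest stratum of CCR2-/- cells, which allows up to 17.7 CPM by the same limit of 3 counts, and folds of 7.68, 2.59 and 1.40 above it. For Cxcl16 the folds were 0.953, 1.01, 1.43 and 1.37. On the log2(CPM + 1) scale, where Tnf in the highest stratum had 0.99, a 2-fold higher CCR2-/- level was reached by 1 of the 6 genes in the lowest stratum, where 11.4% of all genes reached it, and by 4, 3 and 1 of the 6 in the others, where 9.05%, 7.03% and 10.5% did. The highest of the 4 counts fell in the 0.2 to 0.4% stratum, which held 155 CCR2-/- cells.

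Averaging the strata with the same weights in both libraries gave Ccl3 966 CPM in CCR2-/- and 976 CPM in wild-type cells, a log2 ratio of -0.01 where it had been 1.07 over all cells. Ccl4 had 3654 and 1296 CPM, a log2 ratio of 1.49 where it had been 2.60. The standardised log2 ratios were 1.12 for Tnf, 0.96 for Cxcl1, 0.65 for Cxcl2 and 0.30 for Cxcl16. Without the 1% of cells with the most Cxcl1 UMIs that of Cxcl1 was 2.52, and over the alternatives that of Cxcl2 ran from 0.34 to 1.34. Their median was 0.80, compared with 2.09 over all cells. When the strata were made narrower, a choice made after seeing the data, cells with a share above 0.8 to 1.0% (335 CCR2-/- and 61 wild-type cells, median shares 0.899% and 0.871%) had folds of 2.58 for Ccl4, 1.34 for Cxcl1, 1.29 for Cxcl2, 1.24 for Cxcl16, 1.13 for Tnf and 0.805 for Ccl3. At 0.6 to 0.8% (312 and 133 cells) the folds were 2.25 for Ccl4, 1.79 for Tnf, 1.75 for Cxcl1, 1.31 for Cxcl16, 1.203 for Cxcl2 and 0.927 for Ccl3. At 0.4 to 0.6% (241 and 371 cells, median shares 0.504% and 0.475%) they were 3.12 for Cxcl1, 2.82 for Tnf, 2.68 for Ccl4, 1.93 for Cxcl2, 1.45 for Cxcl16 and 1.30 for Ccl3. Above 0 to 0.2% (90 and 1354 cells) the folds were 1.75 for Cxcl2, 1.71 for Ccl4, 0.860 for Cxcl16 and 0.765 for Ccl3. There Cxcl1 had 1.95 from 2 CCR2-/- UMIs and Tnf 1.02 from 8. The share was measured in the same cells as the chemokines and was sequenced at different depth in the 2 libraries. Strata set on thinned cells gave a median of 1.31 and strata of Fos alone 1.44, with Ccl3 at most 0.49 and Ccl4 at least 1.17 in log2 ratio under every alternative tried. What the share itself reflects, the state of the cells in the tissue or their handling, was not tested.

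The count of genes per cell moved with the strata as well. At equal depth, UMIs of 3 or more of the 8 genes were found in the highest stratum in 62.1% of CCR2-/- cells (interval 59.7 to 64.5) and 40.6% of the wild type (31.1 to 50.5). In the 0.4 to 0.8% stratum the values were 46.1% and 25.8%, in the 0.2 to 0.4% stratum 29.7% and 15.6%, and in the lowest 13.5% (5.59 to 25.8) and 10.5% (8.48 to 12.8). In the upper 3 strata the intervals of the libraries did not overlap, and in the lowest they did. These intervals take cells as independent and leave out variation between animals.

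The difference between Ccl3 and Ccl4 can be read without any scaling between libraries, as the number of Ccl4 UMIs per Ccl3 UMI. This ratio was 3.92 (3.83 to 4.02) in CCR2-/- cells and 1.36 (1.33 to 1.39) in wild-type cells, 1.38 in lane 1 and 1.32 in lane 2. By stratum, from the lowest to the highest of the 4, it was 3.00, 3.59, 3.36 and 4.11 in CCR2-/- cells and 1.34, 1.39, 1.56 and 1.24 in wild-type cells. Every CCR2-/- stratum stood above every wild-type stratum, and the intervals, which cover counting error only, did not overlap. Cxcl2 per Ccl3 UMI was 1.31 in CCR2-/- and 0.618 in wild-type cells. Over the same 4 strata of the wild type it ran from 0.350 in the 0.1 to 0.2% stratum to 0.984 in the 0.4 to 0.8% stratum. It was 0.252 in wild-type cells with a share above 0 to 0.05%. Wild-type Ccl4 per Ccl3 was 0.947 in cells with a share above 0 to 0.05%, lower than in any of the 4 strata.

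**Figure D4:**
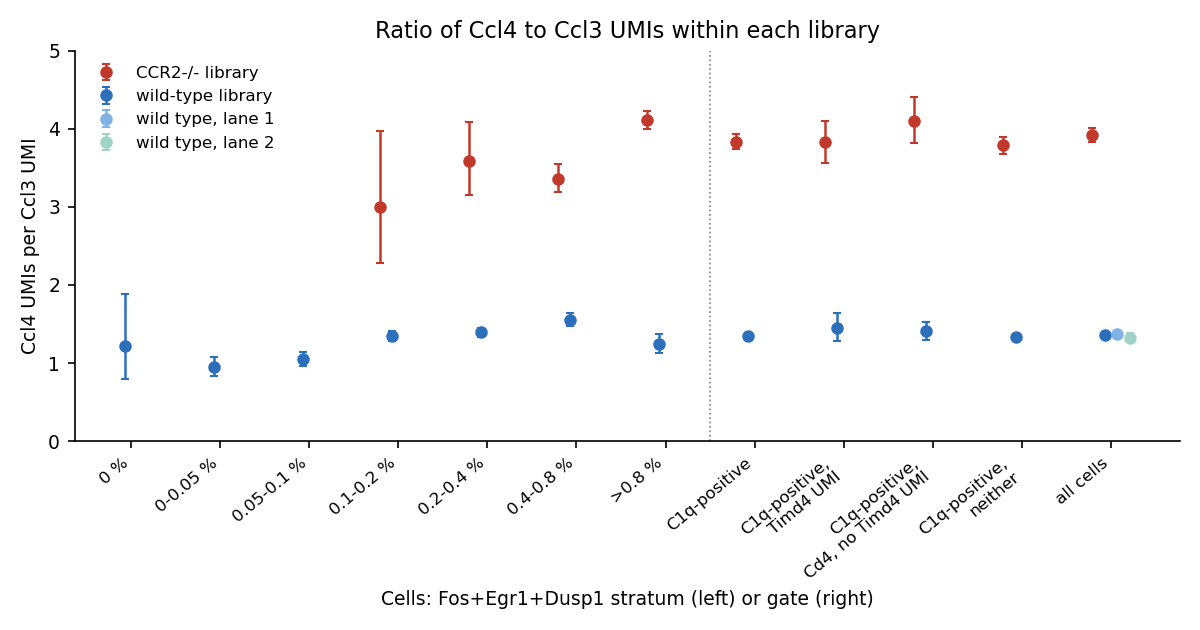
Ccl4 UMIs per Ccl3 UMI, with exact 95% binomial intervals, in strata of the Fos, Egr1 and Dusp1 share (left) and in gates on C1q, Timd4 and Cd4 UMIs and over all cells (right). All CCR2-/- values lie between 3.00 and 4.11 and all wild-type values between 0.947 and 1.56.

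Intestinal macrophages that persist without monocyte input are known to bear TIM4 and CD4, so the genes were also read in gates on these. Cells with at least 3 C1q UMIs and at most 1 gene of the other-cell lists (C1q-positive) numbered 2052 in CCR2-/- and 2765 in the wild type, and held 89.5% and 93.7% of the Ccl4 UMIs. Among them a Timd4 UMI was found in 318 CCR2-/- and 98 wild-type cells. In these Timd4 cells Ccl4 was at 4144 CPM in CCR2-/- and 1186 CPM in wild-type cells, Ccl3 at 1083 and 819 CPM, Cxcl2 at 1589 and 295 CPM and Tnf at 91.2 and 48.0 CPM. In cells with neither a Timd4 nor a Cd4 UMI (1397 and 2409) Ccl4 was at 5212 and 754 CPM, Ccl3 at 1376 and 565 CPM, Cxcl2 at 1744 and 353 CPM and Tnf at 143 and 27.6 CPM. Cells with a Cd4 UMI and no Timd4 UMI (337 and 258) had Ccl4 at 4307 and 975 CPM and Ccl3 at 1049 and 694 CPM. The CCR2-/- value was the higher in each of these gates, and the Ccl4 per Ccl3 ratio was 3.83, 4.10 and 3.79 in CCR2-/- and 1.45, 1.40 and 1.34 in wild-type cells (Timd4, Cd4, neither). These gates were not matched for the Fos, Egr1 and Dusp1 share. In the same order the 3 genes summed to 10269, 11366 and 11287 CPM in CCR2-/- and to 2227, 2488 and 2479 CPM in wild-type cells.

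Wild-type C1q-positive cells could further be divided by a Ccr2 UMI among the 1000 UMIs kept by thinning, present in 549 and not found in 2216, at median full depths of 7306 and 5983 UMIs. Some of the 2216 therefore hold a Ccr2 UMI at full depth. Ccl4 was at 775 CPM with and 787 CPM without a Ccr2 UMI, Ccl3 at 602 and 577 CPM and Cxcl2 at 408 and 341 CPM. Tnf was at 19.4 CPM with and 32.8 CPM without. Il12b had 1 UMI in the 549 cells and 74 UMIs in the 2216 cells, raw counts that rest on few cells. All its wild-type UMIs lay in 19 cells, of which 31.6% had a Ccr2 UMI at full depth. Cxcl16 was at 507 CPM with and 642 CPM without, and Cxcl1 at 12.7 and 8.30 CPM. Both groups of wild-type cells stood below the CCR2-/- C1q-positive cells for each of these genes but Il12b.

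Markers of stromal cells were higher in the CCR2-/- library, and CXCL1 and IL-6 can be made by such cells. In C1q-positive cells fibroblast markers summed to 28.8 CPM in CCR2-/- and 12.1 CPM in wild-type cells. Endothelial markers summed there to 120 and 52.5 CPM, haemoglobin genes to 702 and 12.4 CPM and epithelial markers to 28.9 and 50.7 CPM. The C1q-positive cells held 89.3% and 90.7% of the Cxcl1 UMIs. There Cxcl1 was at 76.6 and 9.26 CPM. The 42 CCR2-/- cells with 2 or more fibroblast genes held 28 of the 523 Cxcl1 UMIs and 0 of the 10 Il6 UMIs, and the 33 cells with 2 or more endothelial genes held 24 and 1. The log2 ratio of Cxcl1 was 2.92 among C1q-positive cells and 2.81 over all cells. Whether Cxcl1 UMIs in C1q-positive cells came from free RNA or other cells was not tested.

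Of the 14 receptor, partner and shedding enzyme genes listed for these ligands, 8 were above the minimum and none reached 2-fold in either direction, which 9.04% of all genes did upward and 3.12% downward. Their median log2 ratio was 0.51. The CCL3 receptor gene Ccr1 had a log2 ratio of -0.14, and the TNF receptor genes Tnfrsf1a and Tnfrsf1b 0.35 and 0.60. Il6ra and Il6st, which encodes gp130, had 0.69 and 0.76, and the shedding enzymes Adam17 and Adam10 had 0.66 and 0.42. Cxcr2 and Cxcr6, receptors of CXCL1, CXCL2 and CXCL16, and Il12rb1 and Il12rb2 were below the minimum in these macrophages.

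Of 19 NF-kB target and feedback genes, 9 were at least 2-fold higher in the CCR2-/- library (9.04% of all genes), none was as far lower, and their median log2 ratio was 0.83. Tnfaip3, which encodes the inhibitor A20, had the highest at 2.68 and Ier3 followed at 2.58, while Sod2 at -0.67 and Traf1 at -0.46 were lowest. Of 10 other inducible cytokine and chemokine genes above the minimum, 4 reached 2-fold against the same 9.04%, led by the monocyte attractants Ccl7 (2.68) and Ccl2 (2.14). Ccl5 (-0.20) and Il27 (-0.18) were the lowest of them.

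Of 8 listed genes for proteins that act on mRNA stability, 3 were at least 2-fold higher (9.04% of all genes). Zfp36, whose protein tristetraprolin speeds the decay of Tnf mRNA, had a log2 ratio of 1.60 and Zc3h12a, which encodes the nuclease regnase-1, 1.496. Hnrnpd at 0.10 and Elavl1 at 0.52 were lowest. Of the other immediate-early genes, 13 of 13 above the minimum were at least 2-fold higher (9.04% of all genes), with Klf2 (2.06) and Junb (2.04) highest and Egr2 (1.30) and Atf3 (1.38) lowest. Of 6 heat shock genes, 2 were at least 2-fold lower (3.12% of all genes), Hspa1a (-1.70) and Hsp90aa1 (-1.14), while Dnajb1 (0.02) and Hspa1b (-0.59) were the highest.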

How the data were processed

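Cells were profiled with the 10x Genomics single cell 3′ v2 chemistry, per the labels' protocols. The authors deposited UMI counts by gene and by cell, whole numbers that were not normalised as far as the values show, made with Cell Ranger 3.0.1 on build mm10 per the submitters' processing notes; cell calling and lane equalising are not given in the sources used here. Counts of kept cells (at least 200 genes, at most 10% mt- UMIs) were summed per library or lane and scaled to CPM. Ratios used log2(CPM + 1), a mean of at least 10 CPM and a 2-fold mark. Sums carry exact Poisson and shares Clopper-Pearson 95% intervals, a count of 0 is given the limit of 3 counts of its total, and without replicates no test was run. Cells were thinned to 1000 UMIs (seed 1). Strata needed 50 cells in each library and were weighted by both libraries' cells. No doublets were removed in the main analysis; Scrublet (scanpy 1.11.5) was an alternative. Trbc1, Trbc2 and Iglv1 were not found in the table. Coordinates are from GENCODE M21 and promoters from RefSeq. The scripts were tested on simulated data. All 8 genes are named, with the 2 highest and 2 lowest log2 ratios of each gene list, receptors, partners and shedding enzymes (1 receptor gene is not reported here), and the 5 genes most correlated with each gene found in at least 5% of cells. Members and lists were chosen with earlier results of these data known.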

Additional observations from a re-analysis of the deposited data

How the results depend on the processing

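Of 13 alternatives, the count of genes at least 2-fold higher in CCR2-/- was 4 with median-of-ratios size factors, which lowered all CCR2-/- levels by 0.31 on the log2 scale, and with wild-type lane 2 alone (Ccl3 fell below in both), 6 of 8 without a minimum, and 5 otherwise. The share of all genes reaching 2-fold was not computed under these alternatives, so these counts have no background beside them. The median log2 ratio (2.09) was 1.78 with those size factors, 1.92 with a pseudocount of 10 CPM, 1.55 with no minimum, 2.16 with at most 5% mt- UMIs, 2.16 in C1q-positive cells, 2.02 and 2.29 with wild-type lane 1 or lane 2 alone, 1.89 in cells with 2000 to 4000 UMIs and 2.03 as the mean of each cell's CPM. It was 2.26 when, gene by gene, the 1% of cells with the most UMIs of that gene were left out. In the same settings the standardised median (0.80) was 0.50 with the size factors, 0.72 with 10 CPM, 0.75 with 5% mt-, 0.86 and 1.11 with lane 1 or 2, 1.08 at 2000 to 4000 UMIs, 0.92 as the mean of cells and 1.15 without the top 1%. Strata in thinned cells gave 1.31, quintiles 0.89 and Fos alone 1.44. The second set of strata, narrower above 0.4%, wider at the low end and added after seeing the data, gave 0.81. The cause of these shifts was not tested. Without the 1% of cells with the most Cxcl1 UMIs the standardised Cxcl1 log2 ratio was 2.52, against 0.96. At 2000 to 4000 UMIs Il12b turned, with a log2 ratio of 1.21 over all those cells and 1.83 standardised, while the wild-type cells with an Il12b UMI had a median of 10021 UMIs.

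Cells with 3 or more of the 8 genes were 4.87% of wild-type and 29.6% of CCR2-/- cells when thinned to 500 UMIs, 31.8% and 76.9% when thinned to 2000, and 63.0% and 78.7% without thinning, at unequal depth. No paired analysis was possible because each genotype had 1 library and the labels give no replicate numbers. Genotype, source and library cannot be told apart, and no interval covers variation between animals.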
